A study of Mus musculus with 4 samples.

Results

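Sterol and fatty acid metabolism was examined in microglia through 31 genes: 16 encoding enzymes of cholesterol synthesis, 4 encoding regulators of the SREBP pathway or a sterol carrier, 5 of the liver X receptor (LXR) and efflux arm, 2 of lipid storage and 4 of fatty acid synthesis. The genes were chosen by name for their roles, from 18459 genes with counts, and all 31 passed the filter on low counts that left 13086 genes for testing. Gene expression was measured by RNA-seq of total RNA from microglia of the mouse corpus callosum, the main white matter tract of the forebrain, at postnatal day 7. The groups were Lag3fl/fl mice (WT), whose Lag3 gene carries the sites for deletion, and Lag3cKO-Cx3 mice (cKO), in which Lag3, an inhibitory immune receptor gene, was to be deleted; there were 2 libraries in each. The name of the cKO line points to a driver at Cx3cr1, which is active in microglia and other cells of the macrophage lineage. The sources used here do not give its full allele. They also do not say whether a library came from 1 pup or several, so the p-values reflect only the spread among 4 libraries. The driver and the deletion come together in cKO and cannot be told apart, and both groups carry the floxed alleles.

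Cells make cholesterol from acetyl-CoA through the mevalonate pathway, which yields squalene and then lanosterol, and lanosterol is trimmed to cholesterol. When membrane sterol is low, SCAP carries the transcription factor SREBP2 from the endoplasmic reticulum to the Golgi, where it is cut and freed to turn on nearly the whole pathway, and INSIG1 holds SCAP back when sterol is plentiful. Oxysterols and late sterol intermediates activate the LXRs, which turn on the exporters ABCA1 and ABCG1 and the ubiquitin ligase MYLIP, which limits sterol uptake, so the synthesis and the efflux arm usually answer sterol in opposite directions. Microglia of early white matter take up debris and myelin rich in cholesterol, which has to be esterified, stored in droplets or passed on through these exporters.

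Sequencing depth was 14645187 to 16770162 counts a library. The second cKO library stood apart: it had counts for 12787 genes against 14840 to 15899 in the others, and Pearson's r of its log2 CPM (counts scaled to the library total) with theirs was 0.783 to 0.802 across genes, against 0.872 to 0.910 among the other 3. It also lacked counts of the Y-linked gene Ddx3y (0, against 89.1 to 107 CPM) and had 290.4 CPM of Xist, against 0, 0 and 6.97 CPM. The cKO libraries thus differed from each other in these sex-linked genes. The part of sex in the values that follow was not tested. Lag3 was at 387 and 683 CPM in WT and at 35.4 and 17.1 CPM in cKO, in the direction of the labels. Cx3cr1, the gene that the driver's name points to, was at 6443 and 6554 CPM in WT and 3404 and 3034 CPM in cKO. All 13 microglial markers had counts in every library, their sum being 29656 and 32942 CPM in WT and 31151 and 29279 CPM in cKO, led by Csf1r and C1qa. The sum hides unlike genes: for 3 of the 13 both cKO values lay above both WT values, and for 3, among them Cx3cr1, below. Other glia, which make much sterol themselves, left counts far below those of the microglial markers. Beside the 16 synthesis genes, which summed to 588 CPM in cKO replicate 2, the astrocyte counts of that library were not low. The 12 astrocyte markers summed to 227 and 185 CPM in WT and 244 and 527 CPM in cKO, led by Gfap and Slc1a3. For 7 of the 12 both cKO values lay above both WT values, and for 2 below, with Gjb6 at 0 in both cKO libraries. The 11 oligodendrocyte markers with counts summed to 133 and 123 CPM in WT and 252 and 175 CPM in cKO, led by Mbp and Cnp. Of these 11, 4 lay above WT and 1 below, Mog, at 0 in both cKO libraries. Over all genes tested, 15.8% lay above WT in this way and 20.0% below. The sum of 10 neutrophil and monocyte markers, led by Ngp and Ltf, was 18.4, 13.7 and 26.1 CPM in the other libraries and 147 CPM in cKO replicate 2. The part of these cells in the values that follow was not tested, and in RNA of a cell population fewer cells of a type and less RNA per cell cannot be told apart.

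For neither arm of cholesterol handling was a difference between the groups found beyond the spread between libraries. None of the 31 genes passed edgeR's quasi-likelihood test, with an adjusted p of 0.9997 for each over the 13086 genes, and none passed DESeq2. With 2 libraries a group edgeR did not call Lag3 itself either (log2 fold change -4.35, adjusted p = 0.9997), while DESeq2 did (adjusted p = 1.04e-19). Over all genes these tests called 0.0% and 0.31%, so the absence of calls is no property of the 31. At an unadjusted p under 0.05 edgeR had 1 of the 31, Scap, against 4.65% of all genes. Both cKO libraries lay above both WT libraries for 5 of the 31 (16.1%, against 15.8% of all genes) and below them for another 5 (16.1%, against 20.0%), and the groups overlapped for the remaining 21. The 15 genes fitted higher in cKO and the 16 fitted lower gave a median log2 fold change of -0.02, beside -0.03 over all genes tested. Fold changes were also small, the median size regardless of direction being 0.27 on the log2 scale for the 29 genes with a mean of at least 5 CPM and 0.33 for the 9426 genes at that level. The libraries of a group differed from each other by a median of 0.17 (WT) and 0.59 (cKO) on the log2 scale for these 31 genes, and by 0.36 and 0.76 over all genes tested. At a mean of at least 5 CPM these gaps were 0.14 and 0.48 for the 29 genes and 0.28 and 0.60 for the 9426.

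**Figure D1:**
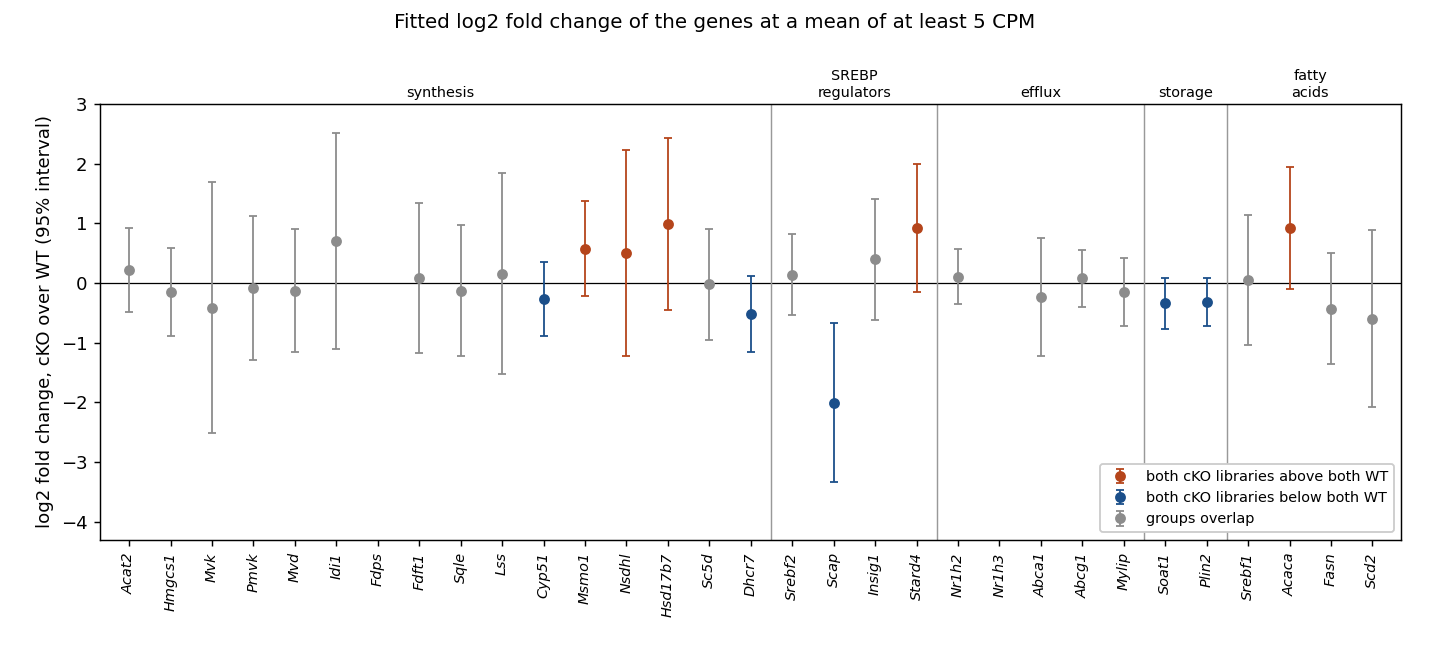
Fitted log2 fold change of cKO over WT (y axis, edgeR, bars are 95% intervals) for the 29 genes with a mean of at least 5 CPM, ordered by role; orange marks genes with both cKO libraries above both WT libraries, blue those with both below, grey those that overlap. Every interval except that of Scap (-3.34 to -0.68, before any correction over genes) includes 0; Fdps and Nr1h3 are not drawn.

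Most efflux genes, both storage genes and Scd2 were strongly expressed, most synthesis enzymes lay below these, and the efflux gene Nr1h3 was low. Per transcript length, the median level of the 5 efflux genes was 60.1 and 65.8 FPKM (fragments per kilobase, scaled to library size) in WT and 67.6 and 55.3 FPKM in cKO. The median of the 16 synthesis genes was 6.26 and 7.67 FPKM in WT and 6.47 and 10.5 FPKM in cKO. Over all genes tested the median was lower, at 4.05 and 4.01 FPKM in WT and 4.08 and 4.11 FPKM in cKO. The efflux median was thus 9.60 and 8.57 times the synthesis median in WT and 10.5 and 5.24 times in cKO, and the low ratio belonged to cKO replicate 2 while cKO replicate 1 lay above both WT libraries. The highest gene by FPKM was Plin2, the coat protein of lipid droplets, at 303 ± 27.1 FPKM (SD, n = 2) in WT. Abcg1, Scd2, Mylip and Abca1 followed at 94.3 ± 6.57, 90.5 ± 2.46, 66.3 ± 8.78 and 64.9 ± 1.20 FPKM (SD, n = 2), then Nr1h2 at 55.0 ± 3.37 and Soat1 at 50.6 ± 2.82 FPKM (SD, n = 2). Abcg1 and Scd2 differed in WT by less than the SD of Abcg1, and Mylip and Abca1 by less than that of Mylip. Nr1h2 and Soat1 differed by a little more than either of their SDs. The highest synthesis enzymes were Pmvk, Acat2 and Dhcr7, at 28.8 ± 4.08, 21.3 ± 0.807 and 19.7 ± 4.21 FPKM (SD, n = 2) in WT. The lowest of the 31 was Fdps at 0.266 ± 0.185 FPKM (SD, n = 2).

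**Figure D2:**
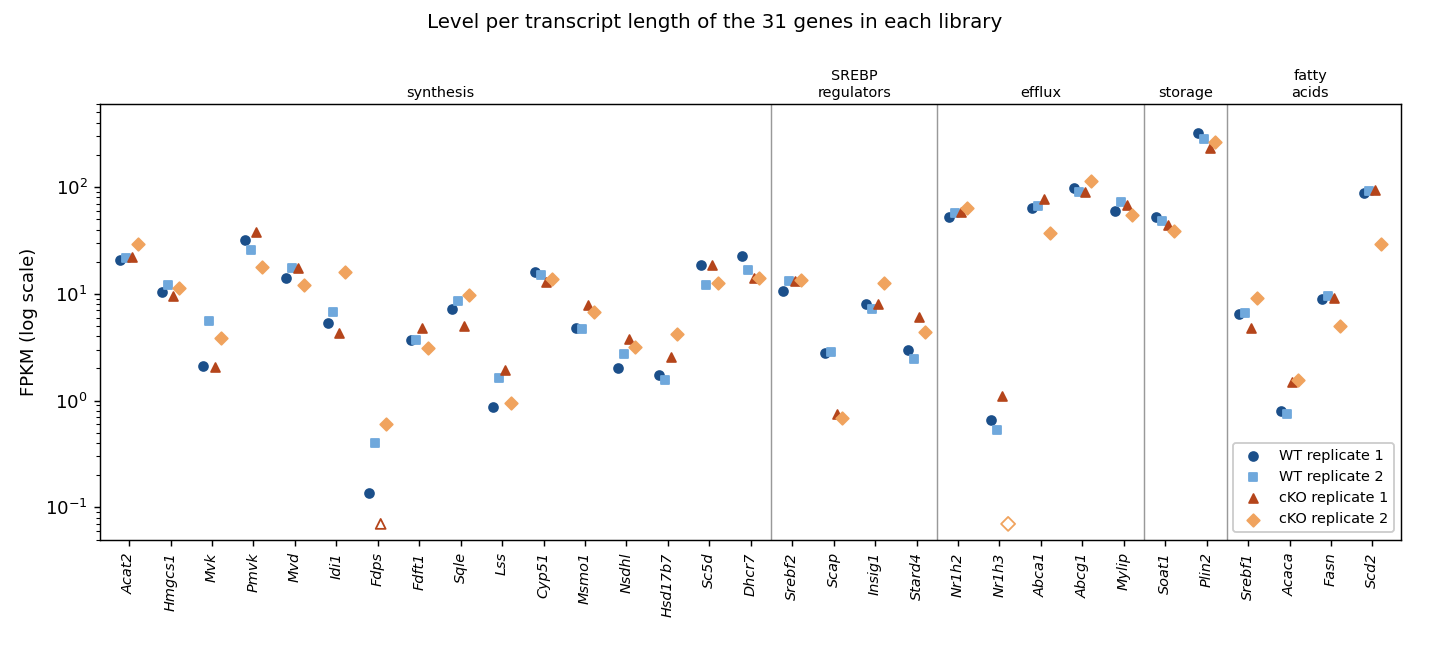
Level per transcript length (y axis, FPKM, log scale) of the 31 genes in each of the 4 libraries, ordered by role; open markers at the lower edge stand for an FPKM of 0 (Fdps in cKO replicate 1, Nr1h3 in cKO replicate 2). Efflux and storage genes other than Nr1h3 lie at 37.0 FPKM or more in every library, and synthesis genes span a lower range led by Pmvk at 38.0 FPKM in cKO replicate 1.

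The sequences just upstream of these genes were searched for motifs known from sterol control. RefSeq promoter windows (GRCm38.p6, from 250 bases before to 50 after the start) were found for 25 of the 31 genes. A CCAAT box, the letters bound by NF-Y, which works together with SREBP2, was present on either strand in 12 of 13 synthesis genes (92.3%) and in 1 of 4 efflux genes (25%, Mylip), against 43.2% of the 9391 genes tested that have a window. Printed are 250 bases before the start, 5′ to 3′ on the strand of the gene, with capitals for CCAAT on either strand (ATTGG is its reverse complement) and for the sterol regulatory element TCACNCCAC. Hmgcs1 is shown for its sterol element, Mvk for its 5 CCAAT boxes and Nsdhl as a late enzyme described next; Plin2, Scap and Abca1 stand for storage, regulation and efflux.
Hmgcs1, chr13:119690101-119690350, plus strand: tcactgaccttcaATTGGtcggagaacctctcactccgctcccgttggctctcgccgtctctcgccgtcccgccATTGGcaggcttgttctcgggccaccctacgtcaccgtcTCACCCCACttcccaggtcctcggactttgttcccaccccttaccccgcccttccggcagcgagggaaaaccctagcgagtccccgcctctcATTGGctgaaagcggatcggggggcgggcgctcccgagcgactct
Mvk, chr5:114444019-114444268, plus strand: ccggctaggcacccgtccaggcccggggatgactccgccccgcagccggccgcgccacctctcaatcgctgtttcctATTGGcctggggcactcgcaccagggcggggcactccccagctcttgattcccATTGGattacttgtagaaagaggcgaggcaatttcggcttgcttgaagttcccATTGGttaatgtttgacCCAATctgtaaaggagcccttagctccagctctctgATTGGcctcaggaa
Nsdhl, chrX:72918271-72918520, plus strand: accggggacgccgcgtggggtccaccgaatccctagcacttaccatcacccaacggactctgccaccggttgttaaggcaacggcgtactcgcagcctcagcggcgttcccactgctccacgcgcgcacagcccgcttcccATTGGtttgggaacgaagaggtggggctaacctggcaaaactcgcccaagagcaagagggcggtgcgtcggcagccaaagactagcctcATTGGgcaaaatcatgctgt
Plin2, chr4:86670060-86670309, minus strand: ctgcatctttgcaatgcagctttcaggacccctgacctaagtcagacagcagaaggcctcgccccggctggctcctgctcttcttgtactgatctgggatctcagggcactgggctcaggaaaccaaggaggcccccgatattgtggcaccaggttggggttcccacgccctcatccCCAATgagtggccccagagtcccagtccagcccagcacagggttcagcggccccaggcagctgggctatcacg
Scap, chr9:110333038-110333287, plus strand: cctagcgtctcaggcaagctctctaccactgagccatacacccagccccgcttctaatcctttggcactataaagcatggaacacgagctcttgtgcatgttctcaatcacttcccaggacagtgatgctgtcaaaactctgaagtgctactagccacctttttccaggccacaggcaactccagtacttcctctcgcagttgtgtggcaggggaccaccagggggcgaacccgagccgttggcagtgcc
Abca1, chr4:53159896-53160145, minus strand: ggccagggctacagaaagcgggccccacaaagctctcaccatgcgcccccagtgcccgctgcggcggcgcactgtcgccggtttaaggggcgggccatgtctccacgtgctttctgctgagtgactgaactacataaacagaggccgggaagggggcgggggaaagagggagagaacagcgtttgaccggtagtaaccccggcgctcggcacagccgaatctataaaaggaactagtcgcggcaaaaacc
Hmgcs1 holds TCACCCCAC 137 to 129 bases before its start between CCAAT boxes, a layout known from SREBP targets, while the upstream bases of Scap and Abca1 hold neither motif. The sterol element was found in 1 of 13 synthesis genes (Hmgcs1), against 1.39% of genes tested, and its core CACCCCAC, which overlaps it, in 2 of 13 (Hmgcs1 and Acat2), against 3.92%. The Sp1 box GGGCGG was found in 12 of 13 synthesis genes and 2 of 4 efflux genes, against 68.1%, and the E-box CACGTG in 3 of 13 and 1 of 4, against 12%. The LXR element, searched as an exact direct repeat of AGGTCA spaced by 4 bases, was found in none of the 25 genes, against 0.0% of genes tested. Since these exact letters occur in only 5 of 32851 windows, the search cannot show whether variant LXR elements are present. These matches describe letters in short windows and were not tested as binding sites.

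**Figure D3:**
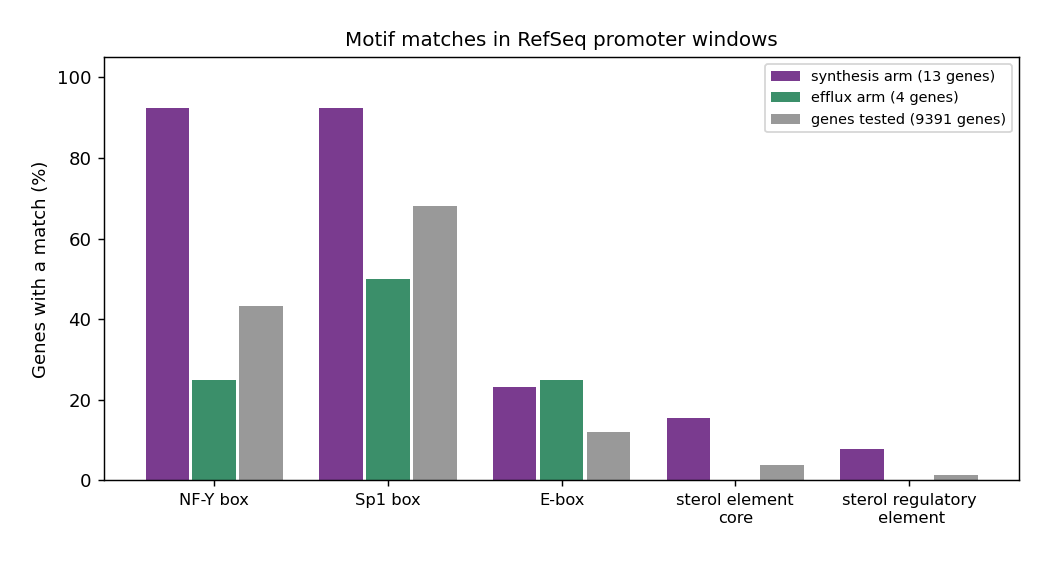
Share of genes (y axis, %) whose 300-base promoter window holds each motif on either strand, for synthesis genes, efflux genes and all genes tested that have a window. The CCAAT box stands at 92.3% of 13 synthesis genes, 25% of 4 efflux genes and 43.2% of 9391 genes tested.

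In the early, mevalonate part of synthesis every enzyme gene overlapped between WT and cKO. Acat2, which joins 2 acetyl-CoA molecules, was at 53.3 and 56.9 CPM in WT and 56.5 and 72.1 CPM in cKO. Hmgcs1, which makes HMG-CoA, was at 47.9 and 57.3 CPM in WT and 44.1 and 50.7 CPM in cKO. The groups overlapped for both, with log2 fold changes of 0.22 (SE 0.27) and -0.15 (SE 0.28). For the mevalonate kinase gene Mvk, the values were 5.74 and 15.2 CPM in WT and 5.54 and 10.1 CPM in cKO. The WT libraries thus differed from each other more than the groups did, by 1.38 on the log2 scale against a log2 fold change of -0.41. Pmvk and Mvd, which phosphorylate and decarboxylate mevalonate products, overlapped too, with log2 fold changes of -0.08 (SE 0.46) and -0.13 (SE 0.39). Idi1, the isomerase that forms the second isoprenoid building block, was at 19.1 and 24.2 CPM in WT and at 15.0 and 55.2 CPM in cKO. The high Idi1 value belonged to cKO replicate 2, which was at least 2-fold above each other library, as it was for 6.34% of all genes. Fdps, farnesyl diphosphate synthase, had 9 and 25 counts in WT and 0 and 37 in cKO. Its lowest library was cKO replicate 1, at least 2-fold below each other library, as for 3.7% of all genes, and counts this low give no usable fold change (log2 fold change 0.11, SE 2.35).

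From squalene onward, 3 synthesis genes lay above WT in both cKO libraries and 2 lay below. The 3 were 18.8% of the 16 synthesis genes, against 15.8% of all genes, a share near the background. The 2 were 12.5%, against 20.0% of all genes. Fdft1, Sqle and Lss, which form squalene, its epoxide and lanosterol, overlapped between the groups, with log2 fold changes of 0.08 (SE 0.48), -0.13 (SE 0.42) and 0.16 (SE 0.64). Cyp51, which takes off the first methyl group of lanosterol, was at 71.6 and 68.3 CPM in WT and 56.4 and 59.9 CPM in cKO, both cKO values being lower, with a log2 fold change of -0.27 (SE 0.24). The C4 demethylation complex, which takes off the next methyl groups, contains MSMO1, NSDHL and HSD17B7. Msmo1 was at 30.04 and 29.7 CPM in WT and 48.5 and 40.5 CPM in cKO. Nsdhl was at 5.80 and 7.99 CPM in WT and 10.7 and 8.87 CPM in cKO. Hsd17b7 was at 8.93 and 8.12 CPM in WT and 13.04 and 20.9 CPM in cKO. For each of the 3 both cKO libraries lay above both WT libraries, and that they belong to the same complex was seen only after their values. Their log2 fold changes were 0.57 (95% interval -0.23 to 1.38), 0.51 (-1.22 to 2.23) and 0.99 (-0.46 to 2.44), so an absence of difference lay within every interval. Erg28, which encodes the scaffold of this complex and was picked after its value was seen, did not share the order, with 44.1 and 45.5 CPM in WT and 53.1 and 34.3 CPM in cKO.

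The genes of the final enzymes overlapped or lay lower in cKO. Sc5d, which sets the ring double bond before the last reduction, was at 92.6 and 60.1 CPM in WT and 90.6 and 59.9 CPM in cKO, with about the same gap inside each group and a log2 fold change of -0.02 (SE 0.36). Dhcr7, the reductase that ends a route to cholesterol, was at 133 and 99.3 CPM in WT and 82.3 and 80.1 CPM in cKO. Both cKO values of Dhcr7 were below WT, with a log2 fold change of -0.52 (95% interval -1.15 to 0.12). Among all 16 synthesis genes, 8 were fitted higher and 8 lower, and their summed level was 615 and 589.8 CPM in WT and 589.5 and 588 CPM in cKO. The summed level of the pathway thus differed between the groups by less than between the WT libraries, at 603 ± 18.2 CPM in WT and 589 ± 0.973 CPM in cKO (SD, n = 2 each). A list of further genes of the synthesis pathway and its control had 6 of 19 tested fitted higher and 13 lower (median log2 fold change -0.14), with none passing edgeR or DESeq2. Mbtps1, the protease that makes the initial cut in SREBPs, and the reductase gene Cyb5r3 overlapped between the groups, with log2 fold changes of -0.33 (SE 0.31) and -0.28 (SE 0.29).

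**Figure D4:**
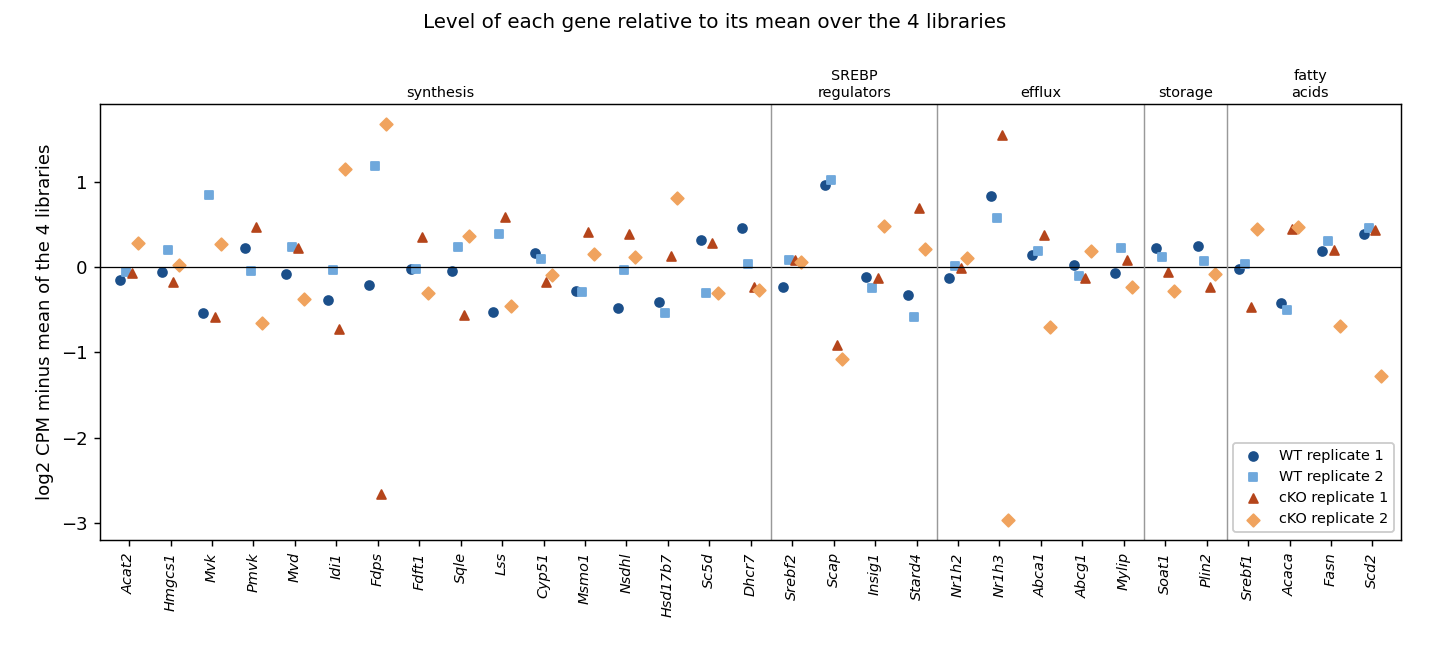
Log2 CPM of each gene in each library minus its mean over the 4 libraries (y axis), ordered by role. For Msmo1, Nsdhl, Hsd17b7, Stard4 and Acaca both cKO points lie above both WT points, for Cyp51, Dhcr7, Scap, Soat1 and Plin2 both lie below, and cKO replicate 2 is far from the rest for Idi1, Nr1h3 and Scd2.

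Scap carried the widest difference among the 31 genes. Scap (chromosome 9, 110333288 to 110384950, plus strand, GRCm38) encodes the escort that SREBPs need to leave the endoplasmic reticulum. It had 328 and 318 counts in WT and 94 and 75 in cKO, or 20.9 and 21.7 CPM against 5.60 and 5.0 CPM. The groups were far apart and the libraries inside each group close together, at 21.3 ± 0.557 CPM for WT and 5.30 ± 0.422 CPM for cKO (SD, n = 2 each). The log2 fold change was -2.01 (95% interval -3.34 to -0.68 before correction over genes), and it ranged from -2.09 to -1.93 when each library was left out. Scap did not pass either test over all genes (adjusted p = 0.9997 by edgeR and 0.198 by DESeq2). In the authors' deposited tables, each of which compares 1 cKO with 1 WT library, Scap was called lower in all 4, with ratios of 0.271, 0.264, 0.248 and 0.241, as were 5.22% of the 13269 genes in all 4 tables. The tables share libraries and are not independent. An unnamed transcript on the opposite strand, 5830462I19Rik, covers 13.2% of the exon bases of Scap, and the sources used here do not give the strand setting of the counting, so part of these counts may belong to it. Cx3cr1, the gene that the driver's name points to, lies on the same chromosome as Scap, at 119901616 to 120069879. Whether the driver's locus has a part in the Scap difference was not tested.

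The other regulators did not share this difference. Srebf2, which encodes SREBP2, was at 53.1 and 66.5 CPM in WT and 66.4 and 65.3 CPM in cKO, for a log2 fold change of 0.14 (SE 0.26). Insig1, itself an SREBP target, was at 25 and 22.9 CPM in WT and 24.95 and 38.1 CPM in cKO, and overlapped between the groups. Stard4, a carrier that moves cholesterol between membranes and is likewise an SREBP2 target, was at 16.6 and 13.9 CPM in WT and 33.8 and 24.2 CPM in cKO. Both cKO values of Stard4 were above WT, with a log2 fold change of 0.92 (95% interval -0.14 to 1.99), and the authors' deposited tables called it higher in 2 of 4. The called log2 ratios were 1.04 and 1.31 (cKO replicate 1 against WT replicates 1 and 2). Those of cKO replicate 2, 0.59 and 0.86, were also above 0 but under 2-fold. The low level of Scap in cKO thus stood beside summed levels of the synthesis enzymes that differed little, and protein or processed SREBP2 was not measured.

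The groups overlapped for all 5 genes of the efflux arm. Nr1h2, which encodes LXR-beta, was at 178 and 197 CPM in WT and 194 and 210.0 CPM in cKO, for a log2 fold change of 0.11 (95% interval -0.35 to 0.57). Nr1h3, which encodes LXR-alpha, was scarce, with 26 and 20 counts in WT and 47 and 0 in cKO. Abca1, which loads cholesterol onto lipid-poor apolipoproteins, was at 672 and 697 CPM in WT and at 792 and 374 CPM in cKO. The cKO libraries of Abca1 lay on opposite sides of WT, so its log2 fold change of -0.23 (SE 0.38) averages 2 unlike libraries. Abcg1, which exports to mature lipoprotein particles, was at 407 and 373 CPM in WT and 367 and 457 CPM in cKO, again straddling WT but in the opposite sense. Mylip was at 196 and 239.6 CPM in WT and 218 and 174 CPM in cKO, and the log2 fold changes of Abcg1 and Mylip were 0.08 (95% interval -0.40 to 0.56) and -0.15 (-0.71 to 0.41). Of 19 other efflux and sterol handling genes tested, 1 lay above WT in both cKO libraries (5.26%, against 15.8% of all genes). Another 2 lay below (10.5%, against 20.0%). The median log2 fold change of the 19 was -0.03, with none passing edgeR or DESeq2. Those below were Apoe, the apolipoprotein that carries cholesterol between brain cells, and Npc1, which releases cholesterol from lysosomes. Apoe was at 20940.0 and 20465 CPM in WT and 17069.6 and 16303 CPM in cKO, a log2 fold change of -0.31 (SE 0.11). Npc1 was at 77.6 and 84.4 CPM in WT and 62.0 and 32.9 CPM in cKO, a log2 fold change of -0.77 (SE 0.38). The gene above WT was Stard3, a sterol carrier of late endosomes, with a log2 fold change of 0.46 (SE 0.28), and the LXR partner gene Rxra overlapped at 0.30 (SE 0.31).

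Set against each other, the synthesis and the efflux arm gave medians of 0.03 and -0.11 on the log2 fold change scale, a difference of 0.14. The efflux median is the value of Nr1h3 itself (SE 2.27), whose counts are too low for a usable fold change. Fdps, also scarce, is among the synthesis genes, so this difference leans on scarce genes. Taken per library, as the median log2 CPM relative to the mean of the 4 libraries, synthesis minus efflux was -0.15 and -0.18 in WT and -0.05 and 0.31 in cKO. Both cKO values exceeded both WT values, but the gap between the cKO libraries was wider than that between cKO replicate 1 and WT, and the pooled SD between replicates was 0.18. The medians include Nr1h3, at 1.55 and -2.96 in cKO replicates 1 and 2, and Fdps, at -2.65 and 1.68. Each of these genes had 0 counts in 1 cKO library, and medians without them were not taken. The difference of the medians was -0.12 without WT replicate 1 and 0.04 without cKO replicate 2. In cKO replicate 2 the synthesis genes stood at 0.07 and the efflux genes at -0.24, beside -0.08 for all genes tested, and this library also had the highest sums of astrocyte and neutrophil markers. In cKO replicate 1 the 2 arms stood at 0.03 and 0.09, beside 0.06 for all genes.

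**Figure D5:**
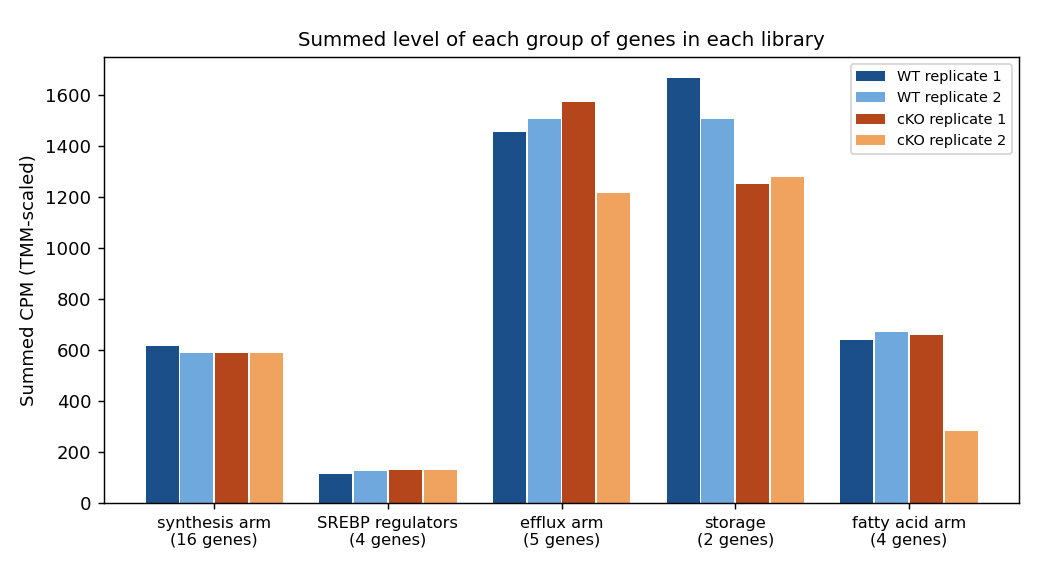
Summed CPM (y axis, scaled by TMM) of each group of genes in each library; bars start at 0. The synthesis sum is 588 to 615 CPM in all 4 libraries, the storage sum is 1505 to 1665 CPM in WT and 1250 to 1278 CPM in cKO, and the fatty acid sum is low in cKO replicate 2.

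Both storage genes were lower in both cKO libraries. Soat1, which esterifies cholesterol for storage, was at 520.5 and 486 CPM in WT and 429 and 367 CPM in cKO. Plin2 was at 1144 and 1019 CPM in WT and 822 and 911 CPM in cKO. The groups did not overlap for either, an order shown by 20.0% of all genes, and the log2 fold changes were -0.34 (95% interval -0.77 to 0.09) and -0.32 (-0.72 to 0.08). Their summed level averaged 1585 ± 113 CPM in WT and 1264 ± 19.6 CPM in cKO (SD, n = 2 each). Among 22 other fatty acid and droplet genes tested, 7 lay below WT in both cKO libraries (31.8%, against 20.0% of all genes). Another 2 lay above (9.09%, against 15.8%). The median log2 fold change of the 22 was -0.08, with none passing edgeR or DESeq2. The lower genes included Pnpla2, the triglyceride lipase, at 71.4 and 56.5 CPM in WT and 45.2 and 48.9 CPM in cKO, and Plin3, another droplet coat, at 298 and 309.5 CPM in WT and 292 and 227 CPM in cKO. Elovl5, an elongase of polyunsaturated fatty acids, was at 71.4 and 82.5 CPM in WT and 57.3 and 12.4 CPM in cKO, and the citrate carrier gene Slc25a1 had a log2 fold change of -0.44 (SE 0.39). For Elovl5 and Slc25a1 most of the difference lay in cKO replicate 2.

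The 4 fatty acid synthesis genes differed among themselves in the order of the libraries. Srebf1, which encodes SREBP1, was at 36.6 and 38.2 CPM in WT and 26.9 and 50.6 CPM in cKO, on both sides of WT. Acaca, the acetyl-CoA carboxylase that commits carbon to fatty acids, was at 13.8 and 13.1 CPM in WT and 25.3 and 25.9 CPM in cKO. Both cKO values of Acaca lay above WT and close together, with a log2 fold change of 0.93 (95% interval -0.10 to 1.95), and 30.4% of its 50-base stretches also occur elsewhere in annotated transcripts, so its counts are uncertain. Fasn, fatty acid synthase, was at 98.7 and 107 CPM in WT and 99.3 and 53.5 CPM in cKO. Scd2, the desaturase that makes monounsaturated fatty acids in brain, was at 489.5 and 514 CPM in WT and 508 and 155 CPM in cKO. For both Fasn and Scd2 cKO replicate 1 lay within the WT values and cKO replicate 2 far below, with log2 fold changes of -0.43 (SE 0.36) and -0.60 (SE 0.57). The second cKO library was at least 2-fold below each other library for Scd2 and Nr1h3, as it was for 17.4% of all genes.

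Each of the authors' deposited tables called few of the 31 genes. Among these genes no ratio under 2-fold was called, whatever its p-value. Acaca was called higher at a log2 ratio of 1.05 (cKO replicate 2 against WT replicate 2). At 0.98 (cKO replicate 1 against WT replicate 2) it was not called. The tables called 2, 2, 3 and 3 of the 31 higher and 2, 3, 3 and 3 lower, for cKO replicate 1 against WT replicates 1 and 2 and cKO replicate 2 against WT replicates 1 and 2. Over all genes the same tables called 20.3%, 17.2%, 18.1% and 17.1% higher and 15.8%, 17.6%, 28.7% and 31.7% lower. None of the 31 was called higher in all 4 tables, against 2.25% of genes, and 1 was called lower in all 4, Scap. Idi1, Hsd17b7 and Stard4 were called higher in 2 tables and Scd2 lower in 2, while Fdps and Nr1h3 were called in both directions in different tables. Counts of Acat2, Idi1, Fdps and Fdft1 are uncertain like those of Acaca, since 39.1%, 25.3%, 26.2% and 26.5% of their 50-base stretches occur in other annotated transcripts, and Hmgcs1 shares 11.6%. Genes on the opposite strand cover 18.3% of the exon bases of Fdft1 (Ctsb) and 12.1% of those of Hmgcs1 (Gm48342). The unknown strand setting thus limits their counts as it does those of Scap.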

How the data were processed

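Counts, FPKM values and pairwise comparisons were taken as the authors deposited them. The submitters' processing notes list HTSeq 0.6.0, TopHat2 2.0.12, Bowtie2 2.2.3 and mm9; annotation, strand and other settings are not given in the sources used here. Gene positions matched GRCm38 for 91.6% of the 18431 genes shared with GENCODE M21 and are given in that build. Per the file headers, the authors deposited read counts per gene for pairs of libraries. They also deposited a normalized signal (each count scaled to the library total), the ratio of each pair with its log2, and p-values of an unnamed test. The authors deposited FPKM for 21044 genes.

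Counts were joined for 18459 genes, and 4315 of 73836 values missing from the pairwise tables were recovered from FPKM (100.0% whole within 1e-06, the highest being 4). Replicates of a group differed by more than sampling noise (chi-square per degree of freedom 27.8 in WT and 107.45 in cKO), so none was treated as a repeat deposit of another. The test was edgeR 4.0.16 in R 4.3.3 (TMM, filterByExpr, quasi-likelihood, Benjamini-Hochberg over all genes tested, threshold 0.05). CPM are scaled by TMM, and standard errors and intervals are derived from the F statistic. With 2 libraries a group, an exact permutation test cannot go below p = 0.333. Groups of genes are described by counts and medians, without a test. The genes and lists were chosen with earlier results of these data known. Named besides the 31 genes are Lag3, Cx3cr1, up to 4 genes per further list with the smallest edgeR p at a mean of at least 5 CPM, and the 2 highest markers per list, of which some items are not reported here; Ddx3y, Xist, Erg28, Gjb6 and Mog were chosen after their values were seen. A count is called uncertain where 10% or more of a gene's 50-base stretches occur in other transcripts. Alternatives were 2 other scalings, DESeq2 1.42.0, 2 other filters, limma 3.58.1 on log2(FPKM + 1, 0.1 or 0.5), a replicate block and leaving out each library.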

Additional observations from a re-analysis of the deposited data

How the results depend on the processing

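No gene was called by edgeR with other scalings or filters, by limma or with the replicate block, while DESeq2 called 39 genes, none of the 31. Leaving out each library gave 0 to 748 calls and 0 to 2 of the 31. The highest count came without cKO replicate 1, where the spread of the remaining cKO library is taken from the WT group; the 2 were Abca1 (-0.87, adjusted p = 0.0418 by edgeR) and Scd2 (-1.70, adjusted p = 0.0290).

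With each library left out in turn, median log2 fold changes ranged from -0.092 (without WT replicate 1) to 0.17 for synthesis, 0.10 to 0.39 for regulators, -0.32 to 0.048 (without cKO replicate 2) for efflux, -0.40 to -0.27 for storage, -0.25 to -0.017 for fatty acids and -0.12 to 0.27 for synthesis minus efflux. The synthesis median was -0.041 with limma on log2(FPKM + 0.1). Nothing in the labels ties libraries of the same replicate number, whose deviations correlated at -0.02 over 13086 genes. In the fit with the replicate block the synthesis median was -0.083, Fdps was at -1.94 and Srebf1 at -0.019, and no call changed.

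The fitted direction turned for 16 of the 31 genes when a library was left out, 11 of them without cKO replicate 2: Mvk (-0.96 to 0.44), Pmvk (-0.76 to 0.38), Mvd (-0.45 to 0.14), Idi1 (-0.53 to 1.35), Fdps (-7.17 to 1.11), Fdft1 (-0.29 to 0.37), Sqle (-0.67 to 0.26), Lss (-0.47 to 0.68), Sc5d (-0.35 to 0.32), Srebf2 (-0.025 to 0.30), Nr1h3 (-7.52 to 0.89), Abca1 (-0.87 to 0.21), Abcg1 (-0.088 to 0.23), Mylip (-0.32 to 0.0021), Srebf1 (-0.48 to 0.44) and Scd2 (-1.70 to 0.018). The other 15 kept their direction, among them Scap, Msmo1, Nsdhl, Hsd17b7, Stard4, Acaca, Cyp51, Dhcr7, Soat1 and Plin2. Over the other 9 settings 28 kept it. Sc5d was at 0.017 by library size alone and at 0.022, 0.023 and 0.023 by limma with pseudocounts of 1, 0.1 and 0.5, and Fdps at -0.37 with 0.1 and -0.025 with 0.5. The cause was not tested. With 2 libraries a group and 1 cKO library apart, differences of the size seen here did not pass edgeR over all genes.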
